A study of Mus musculus with 6 samples.

Results

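The Slc2a genes encode the GLUT family of facilitative hexose transporters, and 10 of them (Slc2a1, Slc2a3, Slc2a4, Slc2a5, Slc2a6, Slc2a8, Slc2a9, Slc2a10, Slc2a12 and Slc2a13) are described here in epididymal fat, a visceral fat depot of the mouse. They were taken by gene symbol from the 54532 gene identifiers of the count data. The 2 remaining protein-coding Slc2a genes, Slc2a2 and Slc2a7, are not among the 10. Slc2a2 was low, with 4 to 25 counts per sample, and Slc2a7 had 0. RNA-seq was run on whole epididymal fat of male C57BL/6J mice, with 3 samples from mice fed a normal diet (ND, 4.5% fat) and 3 from mice fed a high-fat diet (HFD, 60% fat). Feeding started when the mice were 4 weeks old and went on for 16 weeks, the HFD-fed mice being 20 weeks old at sampling, and all 6 samples are labelled as having had no treatment. The study asked whether obese fat holds cells that resemble cancer-associated adipocytes, and for the transporters the design gives a comparison of HFD with ND. The labels do not say whether each sample was a separate mouse, so the p-values measure only the spread between these samples, which may be technical.

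GLUT proteins span the membrane and let sugars move down their concentration gradient. In adipocytes, GLUT4 (Slc2a4) waits in intracellular vesicles and moves to the cell surface when insulin binds its receptor, whereas GLUT1 (Slc2a1) serves basal glucose uptake in most cell types. Other family members carry fructose, urate, oxidised vitamin C or myo-inositol, or sit on internal membranes, so the family as a whole is not a measure of glucose uptake.

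The libraries held between 16996896 and 18859320 counts, and 3 counts, taken as the detection floor, corresponded to 0.150 to 0.181 CPM (counts scaled to a common library size). Of 15751 genes that passed the filter on low counts, 2504 (15.9%) differed between the diets at an adjusted p under 0.05 in edgeR's quasi-likelihood test, with 1552 (9.85%) higher and 952 (6.04%) lower on HFD. At an unadjusted p under 0.05 there were 2940 higher and 2413 lower, and 7962 of all genes tested had a positive log2 fold change. Adipocyte markers were abundant in every library, with 15 markers summing to 38446 to 52388 CPM on ND against 16182 to 36392 CPM on HFD. HFD3 had the lowest adipocyte sum and HFD2 the highest of the HFD libraries. In whole tissue, fewer cells of a type and less RNA per cell cannot be told apart. ND3 stood apart in 10 epithelial markers, which summed to 214 CPM there and to 16.2 to 22.9 CPM in the other 5 libraries.

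All 10 transporters passed the filter. Slc2a13, Slc2a3 and Slc2a4 fell on HFD and Slc2a6 rose, so that 3 of 10 were called lower and 1 of 10 higher, against 6.04% and 9.85% of all genes tested. The other 6 did not pass the test. DESeq2 called the same 4 and Slc2a5, which it called lower, against 20.8% of the 17821 genes to which it gave an adjusted p. The median log2 fold change of the 10 was -0.58, and that of all genes tested was 0.01. The diets did not overlap in CPM for 7 of the 10, a separation found in 40.9% of all genes tested. The 7 were Slc2a3, Slc2a4, Slc2a5, Slc2a8 and Slc2a13 with lower values on HFD and Slc2a6 and Slc2a10 with higher values. Slc2a5 passed the filter only through its ND libraries, as its HFD libraries had 5, 4 and 0 counts. A lower value on HFD was thus favoured by the filter itself, and Slc2a5 adds no support to the 7 or to the median.

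**Figure D1:**
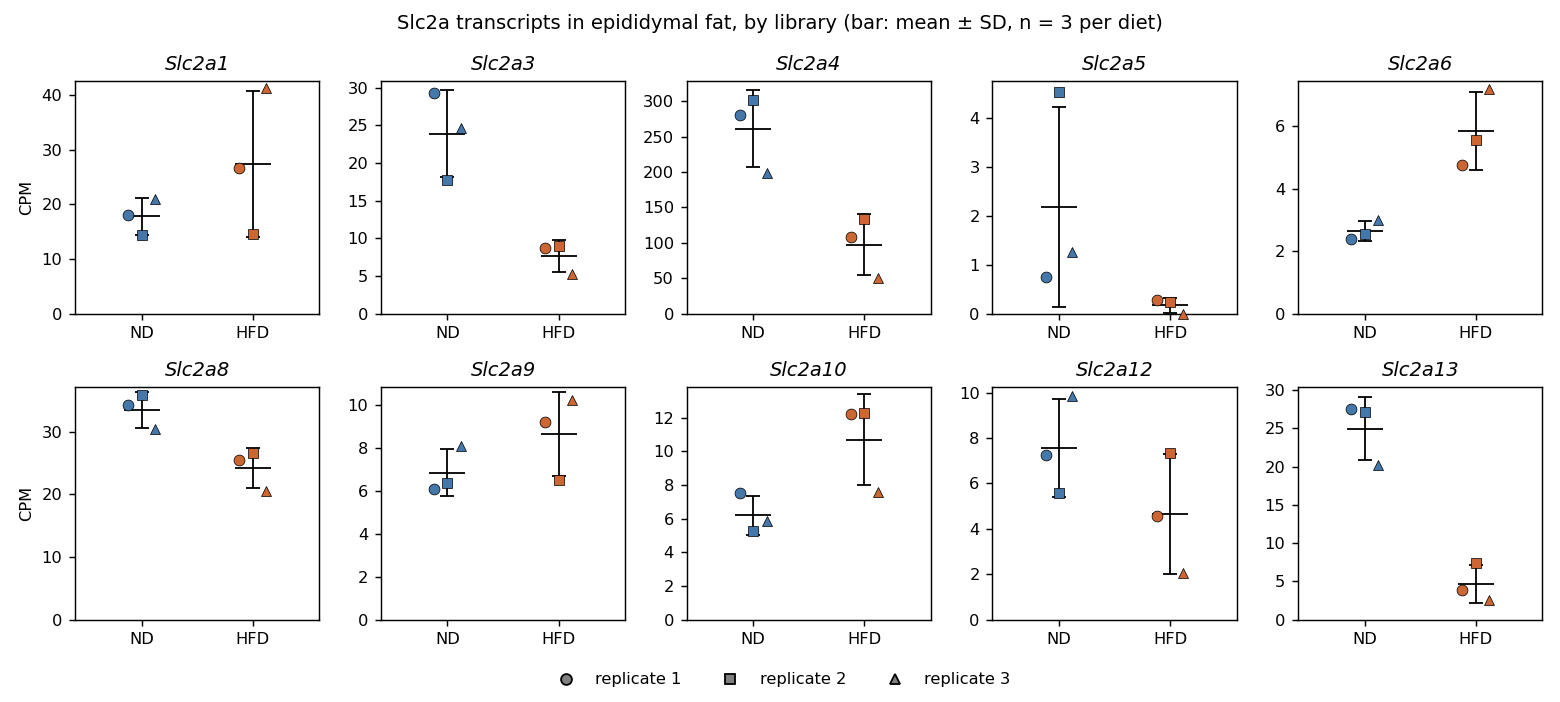
CPM of each of the 10 Slc2a transcripts (y axis, from 0, one panel per gene) in the 3 ND and 3 HFD libraries, with symbols marking the replicate number and bars the mean ± SD. Slc2a4, the most abundant, lies between 199 and 302 CPM on ND and between 50.5 and 134 CPM on HFD, and Slc2a13 between 20.2 and 27.5 CPM on ND and between 2.59 and 7.41 CPM on HFD.

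**Figure D2:**
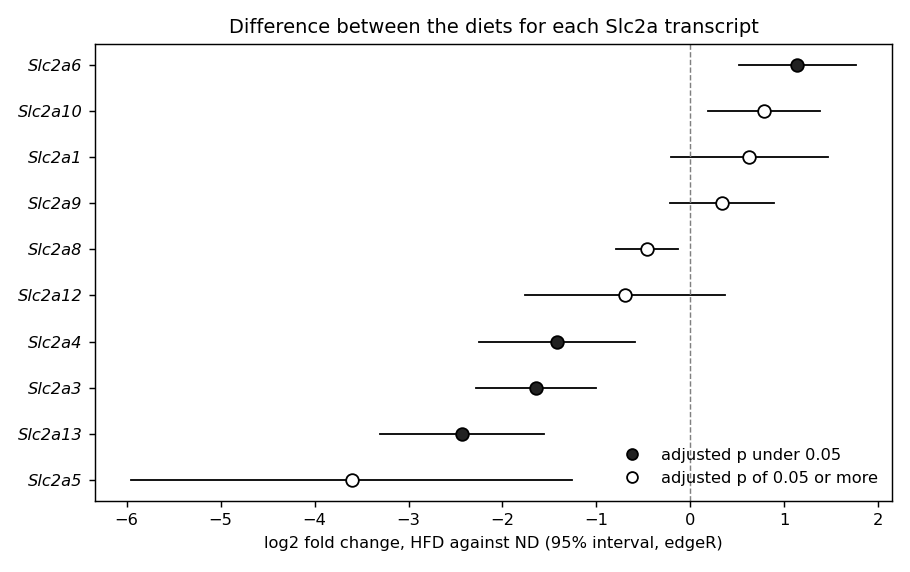
Log2 fold change of HFD against ND (x axis) for each Slc2a transcript, as points with approximate 95% intervals derived from the edgeR test. Filled points have an adjusted p under 0.05. Slc2a6 is the filled point to the right of 0 at 1.14, and Slc2a4, Slc2a3 and Slc2a13 are the filled points to the left at -1.42, -1.64 and -2.43.

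Slc2a4 encodes GLUT4, the insulin-responsive glucose transporter of fat and muscle (ENSMUSG00000018566, chromosome 11 from 69942539 to 69948188, minus strand, GRCm38). It measured 281, 302 and 199 CPM in the ND libraries and 108, 134 and 50.5 CPM in the HFD libraries. Every HFD library was below every ND library, with HFD3 the lowest of all. The mean went from 261 ± 54.4 CPM on ND to 97.6 ± 42.8 CPM on HFD (SD, n = 3 each), a 2.67-fold lower level (log2 fold change -1.42, SE 0.35, 95% interval -2.25 to -0.58, edgeR adjusted p = 0.0379). The call was lost when any of 4 libraries was left out, with an edgeR adjusted p of 0.113 for Slc2a4 without ND1, 0.113 without ND2, 0.0631 without ND3 and 0.115 without HFD1. The adipocyte markers were also lower on HFD as a sum. Of the 15, 12 had a negative log2 fold change, with a median of -0.55 over all 15. At an unadjusted edgeR p under 0.05, 6 were lower and 1 higher. After adjustment only resistin (Retn) and adipsin (Cfd) were called lower, and leptin (Lep) was called higher. Slc2a4 was lower on HFD also relative to 3 of these 15 markers in the same library, a measure chosen after the data were seen. The other markers were not used as denominators, and the lowest log2 fold change among the 15 was -3.42, below that of Slc2a4. Per 1000 CPM of the lipid droplet gene Plin1, Slc2a4 had 142, 146 and 129 CPM on ND against 105, 86.5 and 78.2 CPM on HFD. Per 1000 CPM of the fatty acid binding protein gene Fabp4 the values were 22.0, 22.0 and 18.5 on ND against 10.7, 9.33 and 7.22 on HFD, and per 1000 CPM of the adiponectin gene Adipoq 85.5, 79.4 and 70.8 on ND against 52.3, 35.0 and 48.9 on HFD. Against each of these 3 denominators the diets did not overlap for Slc2a4.

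Slc2a13 encodes the proton-coupled myo-inositol transporter HMIT, the family member that carries a cyclic polyol in place of a hexose (ENSMUSG00000036298, chromosome 15 from 91267696 to 91573261, minus strand). It showed the greatest difference among the 4 called transporters. The ND libraries had 27.5, 27.1 and 20.2 CPM, from 509, 467 and 405 counts, and the HFD libraries 3.88, 7.41 and 2.59 CPM, from 71, 123 and 45 counts. All HFD values were far below all ND values, and HFD2 was the least reduced. The mean was 5.39-fold lower on HFD (log2 fold change -2.43, SE 0.37, 95% interval -3.30 to -1.56, edgeR adjusted p = 0.0102). Without HFD1 the adjusted p of Slc2a13 was 0.0548, and with any other library left out the call held. Per 1000 CPM of Plin1, Slc2a13 had 13.9, 13.1 and 13.1 CPM on ND against 3.77, 4.78 and 4.01 CPM on HFD, with a narrow spread inside each diet. The adipocyte markers were not all used as denominators, and their lowest log2 fold change, -3.42, was below that of Slc2a13.

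The 250 bases before the annotated start of Slc2a13 are printed here because it is the called transporter with the largest fold change, from RefSeq on GRCm38.p6, minus strand, 5′ to 3′, at chr15:91573262-91573511. Capitals mark GC boxes (GGGCGG on either strand). The stretch was 61.2% G and C, held 2 GC boxes, and held none of the 3 other motifs searched, a CCAAT box, a TATA box (letters TATAAA) and an E-box (letters CACGTG). Both strands were searched. The GC box occurred in 32.9% of 27025 promoter stretches of that length, the CCAAT box in 34.5%, the TATA box in 13.0% and the E-box in 6.05%. Such matches describe letters only and were not set against binding data.
Slc2a13 promoter: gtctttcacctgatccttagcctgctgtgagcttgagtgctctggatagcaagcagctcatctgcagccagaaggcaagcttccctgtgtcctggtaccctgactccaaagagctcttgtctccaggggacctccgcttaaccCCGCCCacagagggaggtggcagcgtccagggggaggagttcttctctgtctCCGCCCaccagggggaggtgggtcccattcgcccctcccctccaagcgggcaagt

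Slc2a3 encodes GLUT3, a high-affinity glucose transporter best known from neurons and also made by blood and immune cells (ENSMUSG00000003153, chromosome 6 from 122727809 to 122801640, minus strand). Its ND values were 29.3, 17.8 and 24.6 CPM and its HFD values 8.74, 8.97 and 5.24 CPM. All ND libraries were above all HFD libraries, with ND1 the highest and HFD3 the lowest. Slc2a3 was 3.12-fold lower on HFD (23.9 ± 5.76 against 7.65 ± 2.09 CPM, log2 fold change -1.64, SE 0.27, 95% interval -2.28 to -1.01, edgeR adjusted p = 0.0122). The adjusted p of Slc2a3 was 0.0532 without ND1 and 0.0526 without HFD1, and the call held with any of the other 4 libraries left out. Slc2a3 was lower on HFD also per 1000 CPM of the endothelial cadherin gene Cdh5, at 78.1, 47.0 and 77.7 on ND against 24.7, 28.1 and 30.6 on HFD. Set against 1000 CPM of Plin1 it had 14.8, 8.63 and 16 on ND against 8.49, 5.79 and 8.11 on HFD, and per 1000 CPM of Fabp4 2.29, 1.29 and 2.29 on ND against 0.865, 0.624 and 0.750 on HFD, both without overlap. For Adipoq as the denominator the diets overlapped, since ND2 had 4.68 and HFD3 had 5.08. None of 10 endothelial markers was called by edgeR in either direction (2 had an unadjusted p under 0.05, both lower on HFD), and their sum ran from 1477 to 1804 CPM on ND and from 828 to 1664 CPM on HFD.

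Slc2a6 was the transporter that rose. It encodes GLUT6, which sits on intracellular membranes and is found in leukocytes, spleen and brain (ENSMUSG00000036067, chromosome 2 from 27021363 to 27027998, minus strand). The ND libraries had 2.38, 2.55 and 3.0 CPM, from 44, 44 and 60 counts, and the HFD libraries 4.75, 5.54 and 7.20 CPM, from 87, 92 and 125 counts. Every HFD library was above every ND library, and HFD3 was the highest. The level was 2.20-fold higher on HFD (2.64 ± 0.321 against 5.83 ± 1.25 CPM, log2 fold change 1.14, SE 0.27, 95% interval 0.51 to 1.77, edgeR adjusted p = 0.0305). The call of Slc2a6 held only when HFD2 was the library left out. The adjusted p was 0.113 without ND1, 0.0951 without ND2, 0.0608 without ND3, 0.0840 without HFD1 and 0.0731 without HFD3. The macrophage markers were also higher on HFD as a sum. Among the HFD libraries, both Slc2a6 and this sum were highest in HFD3. Slc2a6 was lowest in HFD1, at 87 counts against 92 in HFD2, a gap not set against counting error. The marker sum was lowest in HFD2. Of 15 such markers 11 were called higher and 0 lower (12 and 0 at an unadjusted p under 0.05), and their sum went from 2118 to 2221 CPM on ND to 4482 to 9860 CPM on HFD, highest in HFD3 and lowest in HFD2. Per 1000 CPM of the macrophage receptor gene Csf1r, Slc2a6 had 14.6, 16.8 and 18.1 on ND against 12.2, 18.7 and 14.0 on HFD, which overlapped. Per 1000 CPM of the macrophage surface gene Adgre1 it was lower on HFD, at 48.9, 61.0 and 63.5 on ND against 14.9, 26.2 and 14.2 on HFD. With the macrophage marker Cd68 as the denominator it was also lower, at 68.6, 80.3 and 107 on ND against 12.5, 28.3 and 10.8 on HFD. The part of the macrophages in the rise of Slc2a6 was not tested.

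The promoter of Slc2a6 is printed because it is the transporter called higher, from the same source, minus strand, at chr2:27027999-27028248. Capitals mark GC boxes (GGGCGG) and CCAAT boxes on either strand. The stretch was 65.2% G and C, and held 1 GC box and 2 CCAAT boxes, where that of Slc2a13 held 2 GC boxes and 0 CCAAT boxes. In all, 8 of the 10 transporters had an entry in the promoter table. Slc2a3 and Slc2a4 had none.
Slc2a6 promoter: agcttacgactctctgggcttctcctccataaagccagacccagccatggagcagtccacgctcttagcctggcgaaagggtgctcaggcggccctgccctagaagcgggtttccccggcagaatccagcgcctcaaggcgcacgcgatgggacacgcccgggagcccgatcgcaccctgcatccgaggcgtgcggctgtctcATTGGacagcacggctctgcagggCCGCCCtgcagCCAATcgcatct

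Slc2a1 encodes GLUT1, the basal glucose transporter of most cells (ENSMUSG00000028645, chromosome 4 from 119108711 to 119137983, plus strand). It measured 18.1, 14.3 and 21 CPM on ND against 26.6, 14.6 and 41.2 CPM on HFD. HFD2 lay among the ND libraries and HFD3 was the highest of all. The difference was within the spread between samples (17.8 ± 3.34 against 27.5 ± 13.4 CPM, log2 fold change 0.63, SE 0.35, 95% interval -0.21 to 1.46, edgeR adjusted p = 0.259). Without HFD2 the log2 fold change of Slc2a1 was 0.93 and the adjusted p 0.0312. The order of the HFD libraries in Slc2a1 was that of their macrophage marker sums, and whether the one bears on the other was not tested. Per 1000 CPM of Csf1r, Slc2a1 had 111, 94.3 and 127 on ND against 68.2, 49.2 and 80.4 on HFD, so that relative to this macrophage transcript it was lower on HFD. Relative to Adgre1 its mean was 386 on ND against 78.0 on HFD per 1000 CPM, and relative to Cd68 575 against 68.7, both without overlap. The other macrophage markers were not used as denominators. The log2 fold changes of the macrophage markers ran from -0.05 to 3.72, so the direction of such a ratio can depend on the marker taken.

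Slc2a10 encodes GLUT10, which carries glucose and oxidised vitamin C and whose loss in humans causes arterial tortuosity (ENSMUSG00000027661, chromosome 2 from 165503787 to 165519917, plus strand). Its values were 7.50, 5.28 and 5.85 CPM on ND against 12.2, 12.3 and 7.60 CPM on HFD. HFD3 was only just above ND1, and the other HFD libraries were well above all of ND. The log2 fold change of 0.79 (SE 0.26, 95% interval 0.19 to 1.38) did not pass the test (edgeR adjusted p = 0.0762), and without HFD3 the adjusted p of Slc2a10 was 0.0294. Slc2a9 encodes GLUT9, a urate transporter (ENSMUSG00000005107, chromosome 5 from 38349273 to 38503143, minus strand). It had 6.10, 6.38 and 8.10 CPM on ND against 9.23, 6.50 and 10.3 CPM on HFD, with HFD2 inside the range of ND. Its log2 fold change was 0.34 (SE 0.24, edgeR adjusted p = 0.357), and Slc2a9 passed the threshold under none of 15 alternative settings.

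Slc2a8 encodes GLUT8, a transporter held on internal membranes by a sorting signal near its start (ENSMUSG00000026791, chromosome 2 from 32972990 to 32982083, minus strand). Its values were 34.2, 35.8 and 30.3 CPM on ND against 25.5, 26.6 and 20.6 CPM on HFD. The diets did not overlap, yet the log2 fold change of -0.47 (SE 0.14, 95% interval -0.80 to -0.14) did not pass the test (edgeR adjusted p = 0.0623). Without HFD2 the adjusted p of Slc2a8 was 0.0461. Relative to Plin1 the diets overlapped, with 17.2, 17.4 and 19.7 CPM of Slc2a8 per 1000 on ND against 24.8, 17.1 and 31.8 on HFD.

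Slc2a12 encodes GLUT12, a glucose transporter of muscle and fat (ENSMUSG00000037490, chromosome 10 from 22645011 to 22704285, plus strand). It had 7.23, 5.57 and 9.85 CPM on ND against 4.59, 7.35 and 2.07 CPM on HFD, where HFD2 was above ND1 and ND2. The log2 fold change of -0.69 (SE 0.45, 95% interval -1.76 to 0.37) did not pass the test (edgeR adjusted p = 0.319). Its exons share 407 bases with those of Tbpl1 on the opposite strand, so reads in that stretch could belong to either gene if the counting ignored strand. Slc2a5 encodes GLUT5, the fructose transporter (ENSMUSG00000028976, chromosome 4 from 150119283 to 150144169, plus strand). On HFD it was close to the detection floor of 3 counts, with 14, 78 and 25 counts on ND against 5, 4 and 0 counts on HFD. All HFD libraries were below all ND libraries, and ND2 held most of the ND counts. Slc2a5 passed the filter on low counts only through ND, so this separation was favoured by the filter. The log2 fold change of Slc2a5 was -3.60 with a wide 95% interval of -5.95 to -1.26 (edgeR adjusted p = 0.0509), while DESeq2 gave an adjusted p of 0.00289. Without ND2 the log2 fold change of Slc2a5 was -2.50 (edgeR adjusted p = 0.138).

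Among the remaining protein-coding Slc2a genes, Slc2a2 was low, though above the detection floor of 3 counts in every library. Slc2a2 (GLUT2, the transporter of liver and the insulin-secreting cell) had 25, 4 and 15 counts on ND against 20, 22 and 14 counts on HFD, and did not pass the test (log2 fold change 0.46, edgeR adjusted p = 0.621). Slc2a7 had 0 counts in all 6 libraries, which allows up to 0.150 to 0.181 CPM, counting error only.

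Levels of different transporters were compared in the deposited FPKM, which divide by gene length. On ND, Slc2a4 led with 76.1 ± 16.5 FPKM (SD, n = 3), followed by Slc2a8 with 10.6 ± 0.979, Slc2a1 with 5.14 ± 0.927, Slc2a3 with 3.35 ± 0.806 and Slc2a13 with 3.03 ± 0.517 FPKM. Slc2a3 and Slc2a13 overlapped, as did Slc2a12, Slc2a10 and Slc2a9 as neighbours in the order, at 1.8, 1.76 and 1.37 FPKM. Slc2a6 and Slc2a5 came last with 0.834 and 0.651 FPKM and overlapped too. On HFD, Slc2a4 still led with 28.2 ± 12.4 FPKM, and Slc2a1 with 7.86 ± 3.81 FPKM overlapped Slc2a8 with 7.58 ± 1.02 FPKM. Slc2a10 followed with 3.01, Slc2a6 with 1.82, Slc2a9 with 1.71, Slc2a12 with 1.11 and Slc2a3 with 1.06 FPKM, each overlapping the next. Slc2a13 came after Slc2a3 with 0.556 FPKM and its mean was below those of 4 transporters that it exceeded on ND (Slc2a6, Slc2a9, Slc2a10 and Slc2a12), and Slc2a5 was last at 0.0506 FPKM.

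The 10 transporters together summed to 112, 116 and 85.7 FPKM in the ND libraries and to 56.5, 61.7 and 40.7 FPKM in the HFD libraries. The mean on HFD (53.0 ± 11.0 FPKM) was 50.6% of that on ND (105 ± 16.5 FPKM), and the diets did not overlap. An exact two-sided permutation test gave p = 0.1, the smallest that 3 against 3 allows, so no value of this kind could reach 0.05. Slc2a4 took 73.5%, 76.2% and 67.1% of the sum on ND against 55.3%, 62.8% and 35.8% on HFD. Its mean share was 72.3 ± 4.70% on ND against 51.3 ± 14.0% on HFD (exact permutation p = 0.1, n = 3 each). Slc2a1 took 4.69%, 3.58% and 7.01% on ND against 13.5%, 6.77% and 29.0% on HFD. Its mean share was 5.10 ± 1.75% on ND against 16.4 ± 11.4% on HFD, and the diets overlapped (exact permutation p = 0.2, n = 3 each). Without HFD3 the mean share of Slc2a1 on HFD was 10.1%. Shares add up to a fixed total, so a lower share of Slc2a4 raises the others. The ratio of Slc2a4 to Slc2a1 in FPKM was 15.7, 21.3 and 9.56 on ND against 4.10, 9.28 and 1.23 on HFD, without overlap, although HFD2 came close to ND3.

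**Figure D3:**
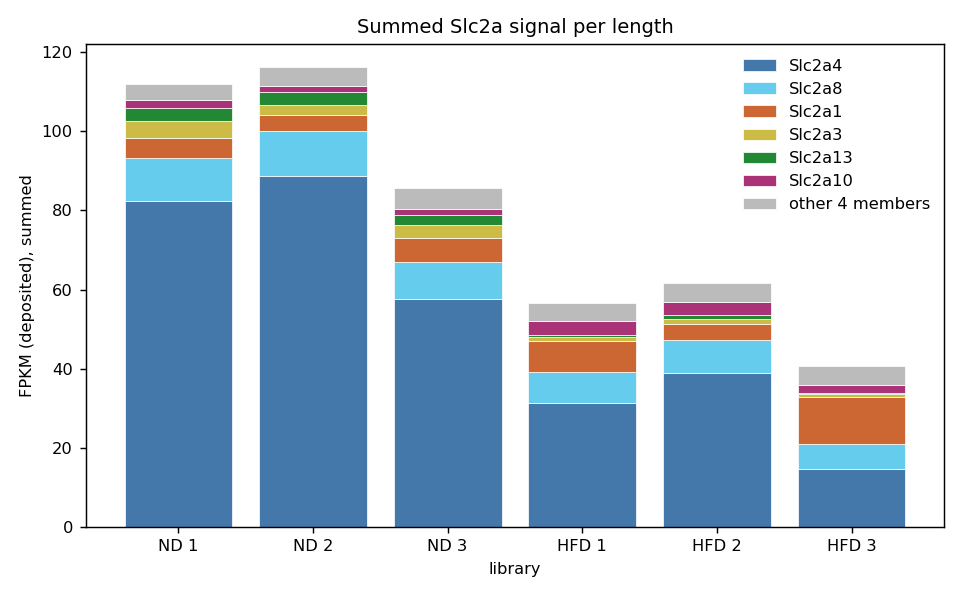
Summed FPKM of the 10 Slc2a transcripts (y axis, from 0) in each of the 6 libraries, stacked by gene, with Slc2a5, Slc2a6, Slc2a9 and Slc2a12 joined in one grey block. The blue block of Slc2a4 makes up 67.1% to 76.2% of the ND bars and 35.8% to 62.8% of the HFD bars, and the orange block of Slc2a1 is tallest in HFD3.

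For each called transporter, the genes with the most similar profile over the 6 libraries were found by the root mean square (RMS) difference in centred log2 CPM. The search covered 13414 genes, from which the transporter itself was left out. The nearest to Slc2a3 were Gulp1 (0.0851), Thbd (0.145) and Gpx3 (0.145). Thbd encodes thrombomodulin, an anticoagulant receptor of endothelium, and Gpx3 a secreted glutathione peroxidase. The nearest to Slc2a4 were Gm4482 (0.133), Cdo1 (0.133), a cysteine dioxygenase, and Gm32031 (0.142). The nearest to Slc2a6 were Ly96 (0.110), which encodes the lipopolysaccharide co-receptor MD-2, Dclre1c (0.118), a DNA repair nuclease, and Ifngr2 (0.131), a chain of the interferon-gamma receptor. The nearest to Slc2a13 were A830018L16Rik (0.158), the glutathione transferase Gsta4 (0.192) and the lipid droplet lipase Pnpla3 (0.209). These values describe likeness over 6 libraries that share the same diets and the same cell mixtures.

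The transporters act with other proteins that carry sugars, move GLUT4, control Slc2a4 and phosphorylate hexoses. Of 96 genes listed for these roles, 80 were tested, and 9 were called higher and 13 lower on HFD, against 9.85% and 6.04% of all genes. These counts varied with the library left out. They were 15 higher and 19 lower without HFD2, 10 and 8 without HFD3, 1 and 2 without ND1 or without ND2, 1 and 6 without ND3, and 1 and 0 without HFD1.

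Of 9 listed genes, sodium-coupled sugar and inositol transporters of the Slc5a family plus Slc50a1, 2 were tested. Slc5a3, the sodium-coupled myo-inositol transporter, fell on HFD together with Slc2a13. Slc5a3 measured 120, 142 and 99.0 CPM on ND against 70.5, 87.9 and 69.6 CPM on HFD, so that the diets did not overlap (log2 fold change -0.67, SE 0.17, edgeR adjusted p = 0.0393). The call of Slc5a3 held in 9 of 15 alternative settings. With 1 library left out it held in 2 of 6 fits, with an edgeR adjusted p of up to 0.138. Its exons share 159 bases with those of Mrps6 and of Gm49711 on the same strand, so reads there may be misassigned. Slc50a1, a SWEET-type sugar carrier, had a log2 fold change of -0.07 and did not pass the test (edgeR adjusted p = 0.674).

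Of 31 tested genes of GLUT4 storage vesicles and their traffic, 4 were called higher, 2 lower and 25 neither, with a median log2 fold change of 0.06. Among all genes tested, 9.85% were called higher and 6.04% lower. Tbc1d4 encodes AS160, the Rab GTPase-activating protein that insulin switches off through Akt. It fell from 73.0, 77.8 and 62.7 CPM on ND to 44.2, 52.9 and 36.8 CPM on HFD (log2 fold change -0.67, SE 0.16, edgeR adjusted p = 0.0322). Ralgapa2, a subunit of the Ral GTPase-activating complex that restrains GLUT4 vesicle docking, also fell (-1.32 on the log2 scale, adjusted p = 0.0135). The vesicle cargo receptors Lrp1 (log2 fold change 1.04, adjusted p = 0.0269) and Igf2r (1.37, adjusted p = 0.0220), the motor Myo5a (1.5, adjusted p = 0.0154) and the syntaxin-binding protein gene Stxbp3 (0.68, adjusted p = 0.0275) rose. Lrp1 and Igf2r are also expressed by macrophages, whose markers were higher in the same libraries, and their part in these differences was not tested. Lnpep, the insulin-regulated aminopeptidase that travels with GLUT4, had 231 to 243 CPM on ND against 205 to 254 CPM on HFD and did not pass the test (edgeR adjusted p = 0.824).

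Of 19 listed genes, all for factors that act on the Slc2a4 gene except the pseudogene Slc2a4rg-ps (log2 fold change 0.02), 4 were called lower, 1 higher and 14 neither, with a median log2 fold change of -0.18. The shares over all genes tested were 6.04% lower and 9.85% higher. Ppargc1a, the coactivator PGC-1 alpha, had 7.99, 8.93 and 10.2 CPM on ND against 1.8, 3.01 and 1.21 CPM on HFD, far apart (log2 fold change -2.17, SE 0.35, edgeR adjusted p = 0.0114). Mlxipl, which encodes the glucose-sensing factor ChREBP, fell by 1.58 on the log2 scale (adjusted p = 0.0263), Klf15 by 1.26 (adjusted p = 0.0468) and the lipogenic factor gene Srebf1 by 1.12 (adjusted p = 0.0272). Mef2d, of the MEF2 family that binds the Slc2a4 promoter, rose by 0.46 (adjusted p = 0.0286). Pparg, the adipocyte nuclear receptor, had 300, 235 and 270 CPM on ND against 174, 235 and 110 CPM on HFD and did not pass the test (log2 fold change -0.63, adjusted p = 0.149).

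Another list held 9 genes for arrestin-like proteins, the retromer, Snx27, Gipc1 and Rab7. Such proteins take glucose transporters from the surface or return them to it. None of the 9 was called in the main edgeR fit, whereas 3 were called higher without HFD2, 3 without HFD3 and 1 with no filter. All 9 had positive log2 fold changes, between 0.12 and 0.89 with a median of 0.51. At an unadjusted p under 0.05 there were 5 higher and 0 lower, where 2940 and 2413 of all 15751 genes were. DESeq2 called 3 of the 9 higher, and among the 17821 genes to which it gave an adjusted p it called 2069 higher. Txnip, the arrestin that removes GLUT1 and GLUT4 from the surface, had 814, 826 and 773 CPM on ND against 1259, 1578 and 1063 CPM on HFD. The diets did not overlap for Txnip, and the adjusted p was 0.0565 (log2 fold change 0.69, SE 0.20). Among the HFD libraries, Txnip and Arrdc3 were highest in HFD2 and lowest in HFD3. Snx27, Gipc1, Rab7, Arrdc4, Vps26a, Vps35 and Vps29 were highest in HFD3 and lowest in HFD2, as were the macrophage markers as a sum. The part of the macrophages in these differences was not tested.

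Of 13 tested genes for hexose kinases and enzymes of the fructose, mannose, galactose and sorbitol routes, 5 were called lower, 3 higher and 5 neither, with a median log2 fold change of -0.12. Over all genes tested, 6.04% were called lower and 9.85% higher. Hk2, the hexokinase of insulin-sensitive tissues, fell from 202, 131 and 132 CPM to 63.2, 95.1 and 39.9 CPM (log2 fold change -1.23, SE 0.33, edgeR adjusted p = 0.0462). Hk3, the hexokinase of myeloid cells, rose from 9.07, 8.64 and 8.15 CPM on ND to 100.3, 52.6 and 230.3 CPM on HFD (log2 fold change 3.89, SE 0.53, adjusted p = 0.00832). Its HFD libraries stood in the order of the macrophage markers, with HFD3 highest and HFD2 lowest, and the part of the macrophages in it was not tested. Hk1, the widely expressed hexokinase, rose by 0.79 on the log2 scale (adjusted p = 0.0274), and the aldose reductase gene Akr1b3 by 0.88 (adjusted p = 0.0392). Khk, which phosphorylates the fructose that GLUT5 carries, fell by 0.78 (adjusted p = 0.0426), and was highest in ND3, the library with the epithelial markers, at 34.2 CPM against 22.0 and 21.5 CPM in the other ND libraries. Galk1 fell by 0.65, Mpi by 0.64 and Pmm1 by 0.98 (adjusted p = 0.0146, 0.0243 and 0.0360).

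Of 12 genes for the handling of urate and vitamin C, the cargoes of GLUT9 and GLUT10, 6 were tested. Slc23a2, the sodium-coupled vitamin C transporter, rose from 41.8, 34.9 and 41.4 CPM to 58.9, 51.4 and 78.8 CPM (log2 fold change 0.68, SE 0.18, edgeR adjusted p = 0.0422). Gsto2, which encodes a dehydroascorbate reductase, fell by 1.58 on the log2 scale (adjusted p = 0.0322). Xdh, which makes urate, had a log2 fold change of 0.10 and did not pass the test (adjusted p = 0.629). The median of the 6 was 0.15.

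**Figure D4:**
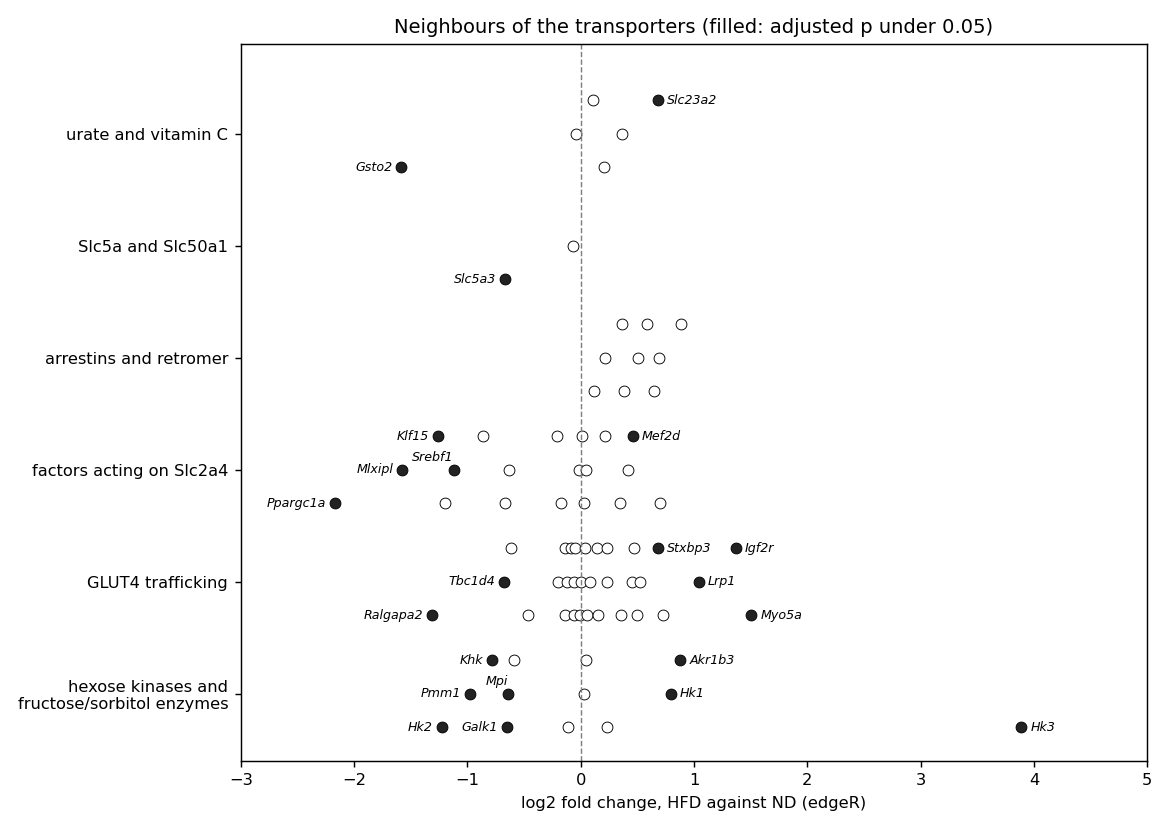
Log2 fold change of HFD against ND (x axis) for the 80 tested genes of 6 lists around the transporters, one row of points per list (spread vertically only to separate them), with filled and named points for an adjusted p under 0.05 in edgeR. Hk3 lies farthest to the right at 3.89 and Ppargc1a farthest to the left at -2.17. All 9 genes of the row named for arrestins and the retromer, which includes Gipc1 and Rab7, are open points to the right of 0.

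The calls of the transporters were set against 15 alternative settings, which changed the tool, the scaling, the filter, the unit or the libraries used. No transporter changed the sign of its log2 fold change under any of them. Slc2a13 passed the threshold in 14 of the 15, Slc2a3 in 12, Slc2a4 in 9 and Slc2a6 in 8. Of the transporters not called, Slc2a5 passed in 2 of the 13 settings that gave it a value, Slc2a1, Slc2a8 and Slc2a10 in 1 each, and Slc2a9 and Slc2a12 in 0.

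**Figure D5:**
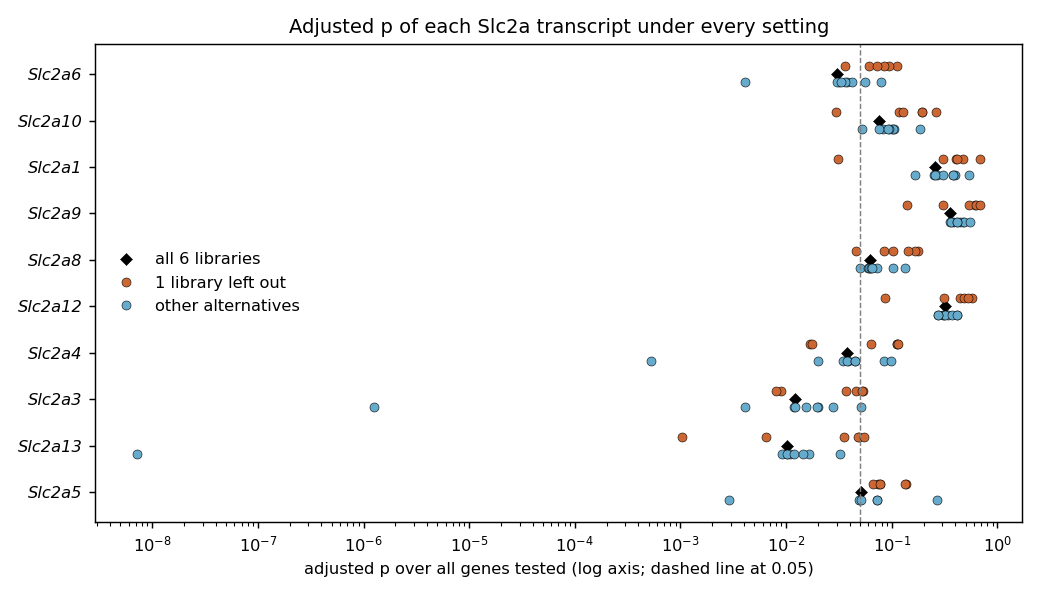
Adjusted p (x axis, log scale) of each Slc2a transcript with all 6 libraries (black diamonds), with 1 library left out (orange circles) and under the other alternatives (blue circles), with a dashed line at 0.05. Slc2a13 has 1 point to the right of the line, at 0.0548, and all points of Slc2a9 and Slc2a12 lie to its right.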

How the data were processed

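RNA-seq was run on epididymal fat from 3 ND and 3 HFD samples. The authors deposited raw read counts per gene and FPKM values. Counts over FPKM matched a constant per gene times a library factor to within 1.06e-06% for 11492 well-counted genes. The constants were not compared with gene lengths. The study's methods describe TopHat and Cufflinks on GRCm38, whereas the submitters' processing notes name CASAVA 1.8, fastp, HISAT2 2.0.5, featureCounts 1.5.0-p3, DESeq2 1.20.0 and the human build GRCh38. All 54532 identifiers are mouse, and 54495 were found in GENCODE M21 (GRCm38), which gave symbols and positions. The strand setting of the counting is not given in the sources used here, and reads of overlapping genes may be misassigned.

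Diets were compared on the counts with the quasi-likelihood test of edgeR 4.0.16 (R 4.3.3), with TMM scaling, filterByExpr and Benjamini-Hochberg adjustment over all genes tested (threshold 0.05). CPM used TMM library sizes. Standard errors were derived from the same test, as the size of the log2 fold change over the square root of the F statistic. The 95% intervals applied a t distribution to them, so both are approximate. Scripts were tested on simulated counts. Alternatives were DESeq2 1.42.0, its size factors, count totals alone, no filter, a filter of 10 counts in 3 libraries, a replicate block, limma 3.58.1 on log2(FPKM + 1) (filter of 0.5 FPKM, or none) or log2(FPKM + 0.1), and leaving out each library. Shares and sums of FPKM were tested by exact permutation. No pair of libraries was identical. Promoter sequences were RefSeq's. The genes named were all the transporters, the listed genes that passed the threshold or show their list's range, and the 3 nearest profiles of each called transporter among genes with an average log2 CPM above 1. The members and lists were chosen with earlier results of these data known. 1 gene of the lists is not reported here and is in none of their counts.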

Additional observations from a re-analysis of the deposited data

How the results depend on the processing

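Of 148 values of the transporters under an alternative, 126 kept their direction and side of the threshold, 17 lost the call, 5 gained one and 0 reversed. With each library left out in turn, the genes called ranged from 474 to 3940 (2504 with all), those higher from 337 to 2368 and those lower from 94 to 1572. The transporters called higher ranged from 0 to 2 and those called lower from 0 to 4, and the listed pathway genes from 1 to 15 higher and 0 to 19 lower. The fewest calls in total came without HFD1 and the most without HFD2, and the fewest higher calls came without ND1. DESeq2 called 1632 genes lower against 952. On log2(FPKM + 1) with no filter, limma called 579 genes (368 higher, 211 lower), 0 transporters higher and 1 lower, and 1 pathway gene higher and 2 lower. Slc2a4 was also lost by edgeR with no filter (adjusted p = 0.0849). With CPM in place of FPKM, the share of Slc2a4 on ND was 67.0%. In the order of levels, 0 to 6 transporters changed rank on ND and 0 to 4 on HFD when a library was left out.

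Same-numbered libraries did not deviate together (r = -0.0858, -0.0556 and -0.00532 across genes), and 0 of 6 libraries correlated best with their own number. With the number as a replicate block, 1886 genes were called, 0 transporters higher (Slc2a6 at an adjusted p of 0.0555) and 3 lower.

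The main limits are 3 libraries per diet, of 16996896 to 18859320 counts each, and counts of 0 to 5 for Slc2a5 on HFD. Sampling error and the spread between samples were not separated.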
